A study of Mus musculus with 6 samples.

Results

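The apolipoprotein L genes of SL4 cells were examined as 6 named members, Apol6, Apol8, Apol9a, Apol9b, Apol10a and Apol10b, taken as the rows of the expression table that carry these gene names. They are 6 of the 14 genes named Apol and a number among the 53700 genes listed. The members were picked with the RNA difference between the groups already known, so their levels and fold changes are given as a description. SL4 is a mouse CRC cell line, here a version that carries luciferase. The pLV-Control group consisted of 3 libraries of SL4 cells without SEMA6A overexpression, and the pLV-SEMA6A group of 3 libraries of SL4 cells made to overexpress SEMA6A stably from a lentivirus. Both groups therefore share the parental line, no agent or time point is given, and the labels do not say whether control cells carry an empty vector. No independently made pLV-SEMA6A lines are described, so SEMA6A and a difference between cell lines cannot be told apart. Nothing states that replicates were separate cultures, and p-values measure only the spread between these libraries.

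Apolipoprotein L proteins are a vertebrate family named after human APOL1, a blood protein that kills trypanosomes, while most other members stay inside the cell. They associate with membranes, and several are induced by interferons in human and mouse cells. Interferons bind receptors that activate the JAK kinases and the STAT factors, and a complex of STAT factors and IRF9 then binds response elements in front of interferon-stimulated genes. Mouse Apol9a and Apol9b are such genes, with a reported antiviral activity against Theiler's virus.

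Expression was deposited as TPM, a unit scaled to transcript length and to a fixed total, so levels can be compared between genes, but the number of reads behind them is unknown and no detection limit was derived. Sema6a read 0 in all 3 pLV-Control libraries and 98.7, 118 and 112 TPM in pLV-SEMA6A replicates 1, 2 and 3, as labelled. Of 12 colon epithelium markers, 1 reached 1 TPM in any library, Lgals4. It had 1.78, 2.33 and 2.33 TPM in pLV-Control against 0, 0.28 and 0.81 TPM in pLV-SEMA6A, and was a downregulated DEG. Epcam, Cdx1 and Cdx2 were listed at 0 throughout. Apart from Lgals4, the markers of the tissue that gives the line its label were thus absent or near 0. Of 8 fibroblast markers, 7 reached 1 TPM, and their summed level was 126 to 143 TPM in pLV-Control and 184 to 189.9 TPM in pLV-SEMA6A, mostly from Col3a1. Within the list Col3a1 and Col1a1 rose, while Pdgfrb (10.5 to 6.66 TPM) and Pdgfra (1.76 to 0.78 TPM) were downregulated DEGs, so the list did not move one way. The summed level of 10 leukocyte markers stayed at or below 2.75 TPM, that of 5 endothelium markers at or below 0.56 TPM and that of 5 hepatocyte markers at or below 0.03 TPM. The part of the fibroblast genes in the Apol differences was not tested. In bulk RNA, fewer expressing cells and less RNA per cell cannot be told apart.

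The members lie on chromosome 15. In GENCODE M21, which uses the GRCm38 build and was matched by gene identifier, they span 712 kb, from Apol6 at 77044729 to the end of Apol8 at 77757003. The submitters' processing notes name mm39, so these positions are those of another build. Apol9a (ENSMUSG00000057346) runs from 77403789 to 77411135 on the minus strand and Apol9b (ENSMUSG00000068246) from 77729039 to 77736382 on the plus strand, with 318 kb between them. Both have a coding part of 930 bases over transcripts with 3 exons. The coding sequences match at 916 of 930 positions (98.5%), without gaps. Of the 14 substitutions, written as the Apol9a base, the position counted from the A of the start codon and the Apol9b base, T47C comes first and the next is C494T, so that 446 bases in a row are the same.

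The 150 coding bases with the most differences, positions 484 to 633 in GENCODE M21, are shown. Reads that lie within the coding part can be assigned to a single one of these genes only where the letters differ. The 8 differing bases are in capitals.
Apol9a: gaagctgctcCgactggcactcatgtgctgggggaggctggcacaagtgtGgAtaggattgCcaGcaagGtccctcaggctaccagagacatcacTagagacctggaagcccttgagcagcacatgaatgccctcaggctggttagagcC
Apol9b: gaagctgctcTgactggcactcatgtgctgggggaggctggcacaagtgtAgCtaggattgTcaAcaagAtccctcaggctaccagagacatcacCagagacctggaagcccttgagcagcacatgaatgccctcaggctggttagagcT

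Over stretches of 31 coding bases, 70.7% were identical between Apol9a and Apol9b. For stretches of 150 bases the share was 38.0%, and for 300 bases, near the size to which the mRNA was fragmented, 23.3%. Counting all transcripts of the genes, 64.9% of the 31-base stretches of Apol9b also occur in Apol9a, and 20.2% of those of Apol9a occur in Apol9b. At 150 bases these shares were 22.5% and 7.10%. The authors' split of reads between these 2 genes is therefore uncertain, and their sum depends less on it. The coding sequences of Apol10a and Apol10b are less alike, at 75.4% of the aligned bases, and 8.63% of the 31-base stretches of Apol10b occur in Apol10a. Apol8 shares 0.232% of its stretches with other genes and Apol6 2.24%.

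**Figure D1:**
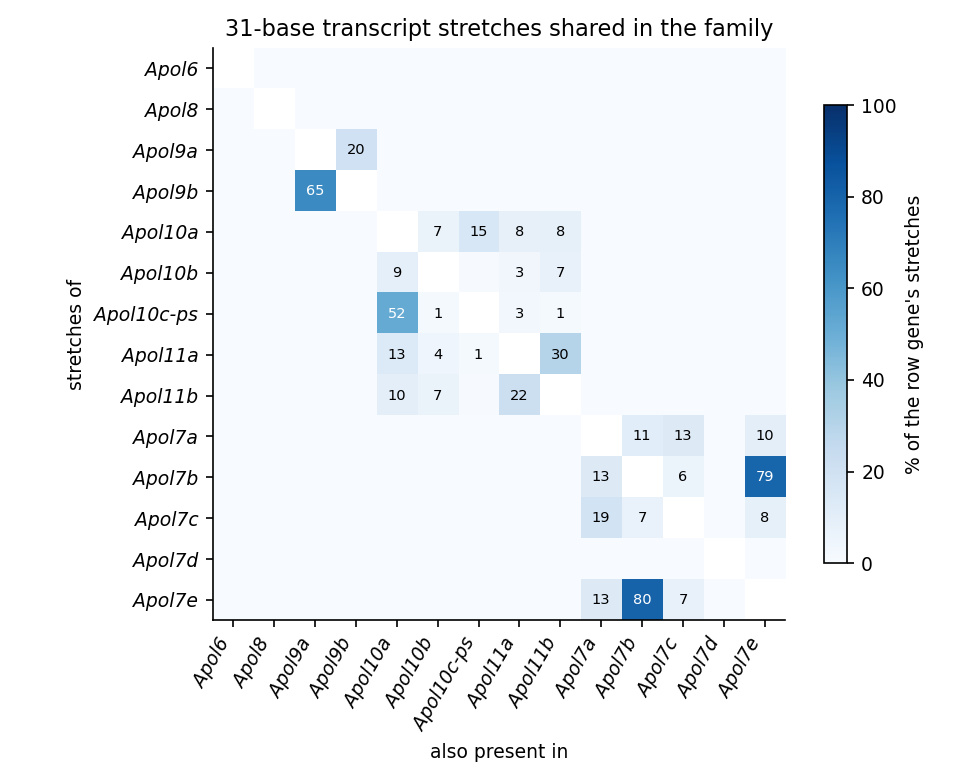
Percentage of the 31-base stretches in the transcripts of each Apol gene (rows) that also occur in each other Apol gene (columns), with values of at least 1 printed and the diagonal left blank. Apol9b shares 65% of its stretches with Apol9a, Apol7b and Apol7e share about 80% with each other, and Apol6, Apol8 and Apol7d share almost none.

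Among the members, Apol9a, Apol9b and Apol10b had levels that did not overlap between the groups. Every pLV-SEMA6A library also lay below every pLV-Control library in 34.7% of all genes tested, and Apol10b was too low to be tested. The promoters of these 3 members are shown. They are the first windows listed by RefSeq for each gene on GRCm38.p6, from 250 bases before to 50 bases after the start site, at chr15:77411031-77411330 on the minus strand, chr15:77728822-77729121 on the plus strand and chr15:77596076-77596375 on the minus strand. The core of the interferon response element was taken as GAAA, any 2 bases and GAAA again, and was searched on both strands. Its matches are in capitals, here all of them on the opposite strand (TTTC, any 2 bases, TTTC).
Apol9a: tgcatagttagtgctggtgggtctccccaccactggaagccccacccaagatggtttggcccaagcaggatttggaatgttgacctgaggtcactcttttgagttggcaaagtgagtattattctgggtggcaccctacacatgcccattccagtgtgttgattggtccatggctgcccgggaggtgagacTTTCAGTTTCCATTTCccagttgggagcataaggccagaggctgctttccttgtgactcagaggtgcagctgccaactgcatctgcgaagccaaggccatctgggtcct
Apol9b: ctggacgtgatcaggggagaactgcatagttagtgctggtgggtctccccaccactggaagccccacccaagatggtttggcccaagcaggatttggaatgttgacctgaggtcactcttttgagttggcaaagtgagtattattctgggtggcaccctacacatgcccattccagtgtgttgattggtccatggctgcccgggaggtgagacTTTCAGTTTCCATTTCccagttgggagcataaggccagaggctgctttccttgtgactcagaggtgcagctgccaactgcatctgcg
Apol10b: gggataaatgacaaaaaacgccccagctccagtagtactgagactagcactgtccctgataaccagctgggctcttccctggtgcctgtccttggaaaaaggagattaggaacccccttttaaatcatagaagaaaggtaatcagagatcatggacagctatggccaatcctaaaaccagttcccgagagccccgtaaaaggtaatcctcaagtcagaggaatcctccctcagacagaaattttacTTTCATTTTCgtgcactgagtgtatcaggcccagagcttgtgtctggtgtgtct

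The Apol9a and Apol9b windows overlap by 278 bases when the annotated starts are set 22 bases apart, and all 278 bases were identical. Each holds 2 overlapping matches, TTTCAGTTTC and TTTCCATTTC, with centres 54 and 48 bases before the Apol9a start and 32 and 26 bases before the Apol9b start. A further window listed for each gene has another start. From there the same matches lie 100 and 94 bases before for Apol9a, and 81 and 75 bases before for Apol9b. The match of Apol10b, TTTCATTTTC, lies at its annotated start, with its centre 1 base after it. The RefSeq table held promoters of 5 members, and 4 of them had a match, Apol10a in addition to these 3 and Apol8 not. The same letters were found in 3.44% of all 32851 promoter windows, in 3.79% of the 9205 genes tested that had a promoter, and in 9.50% of the 968 downregulated genes that had one. Of the 6 other Apol genes with a promoter, 4 had a match (Apol11a, Apol11b, Apol7c and Apol7e), and these 4 were listed at 0.09 TPM or less in each library. The core of a STAT site, TTC, any 3 bases and GAA, was found in 8.30% of all windows. It was found in 8.06% of the tested genes with a promoter and in 9.61% of the downregulated genes with one. Among the members 1 had it, Apol10a, whereas Apol9a, Apol9b, Apol10b and Apol8 had none.

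Of the 6 members, Apol9a and Apol9b supplied nearly all of the family's RNA. The TPM of Apol9a were 402, 410.0 and 389.5 for pLV-Control replicates 1 to 3, against 114, 103 and 111 for pLV-SEMA6A replicates 1 to 3. The TPM of Apol9b were 382, 385 and 382 for pLV-Control, against 109.6, 106 and 114 for pLV-SEMA6A. For both genes the 3 pLV-SEMA6A libraries lay far below the 3 pLV-Control libraries, without overlap. The means of Apol9a were 401 ± 10.3 and 109 ± 5.93 TPM (SD, n = 3 each), a ratio of 3.66. Those of Apol9b were 383 ± 1.46 and 110.1 ± 3.93 TPM (SD, n = 3 each), a ratio of 3.48. On the log2(TPM + 1) scale the differences were −1.87 (standard error 0.04) for Apol9a and −1.79 (standard error 0.03) for Apol9b.

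Because reads can be split between these genes, their TPM were also added. The summed TPM were 784, 795 and 772 for pLV-Control against 224, 209 and 225 for pLV-SEMA6A, a ratio of 3.57 and a difference of −1.83 on the log2 scale. Apol9a made up 51.3%, 51.6% and 50.5% of the sum in pLV-Control and 51.1%, 49.1% and 49.2% in pLV-SEMA6A. These shares overlap between the groups, and the listed levels of Apol9a and Apol9b were close to equal in each library. Both the shares and these levels rest on the authors' uncertain split of reads. The pair made up 99.4% to 99.7% of the summed TPM of the 14 Apol genes in pLV-Control and 98.5% to 99.4% in pLV-SEMA6A. Within a group the CV of Apol9b was 0.381% in pLV-Control and 3.57% in pLV-SEMA6A, and that of Apol9a 2.58% and 5.43%. The CV is the SD as a percentage of the mean, and genes whose mean lay between 50 and 500 TPM had a median CV of 3.12% and 3.20% in these groups. The lower quartile in pLV-Control was 1.89%, so the pLV-Control libraries were closer together for Apol9b than for most genes of such a level.

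The other 4 members were low. The TPM of Apol10b were 1.29, 0.71 and 1.19 for pLV-Control, and 0, 0 and 0.09 were listed for pLV-SEMA6A. Every pLV-SEMA6A value was below every pLV-Control value, but a gene at this level may rest on few reads, and its mean over the 6 libraries was under the minimum of 1 TPM for the fit. Without that minimum, the fitted difference was −0.99 (standard error 0.13) on the log2(TPM + 1) scale. A fold change is not given, because pLV-SEMA6A libraries are listed at 0. Apol10a was listed at 0.02 TPM in pLV-Control replicate 1 and at 0 in the other libraries.

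Apol6, whose human counterpart can promote cell death, had TPM of 0.21, 0.03 and 0.14 for pLV-Control against 0.25, 0.07 and 0.16 for pLV-SEMA6A. Apol8 had TPM of 0.09, 0.26 and 0.10 for pLV-Control against 0.12, 0.17 and 0.05 for pLV-SEMA6A. The groups overlapped for both genes, and all 12 values were below 0.3 TPM. Apol6 overlaps Mb, the myoglobin gene, in the annotation, and the sources used here do not say whether strand was kept in counting.

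**Figure D2:**
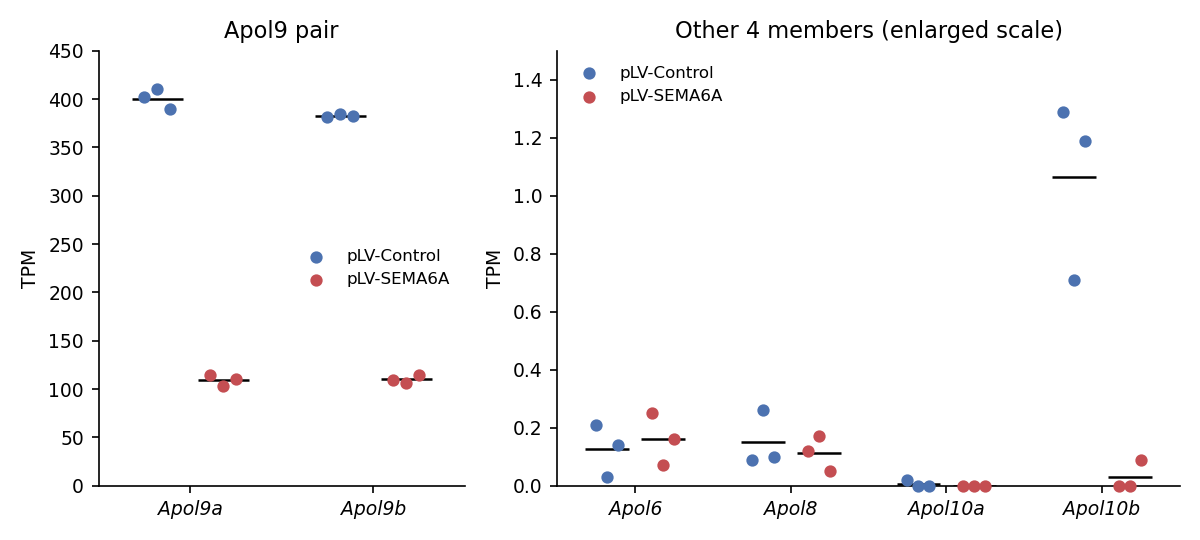
TPM of the 6 members in each library, with Apol9a and Apol9b on the left and the other 4 members on an enlarged scale on the right. Points are libraries (3 per group) and bars are group means. Apol9a and Apol9b sit between 382 and 410.0 TPM in pLV-Control and between 103 and 114 TPM in pLV-SEMA6A, Apol10b reaches 1.29 TPM in pLV-Control alone, and Apol6, Apol8 and Apol10a overlap between the groups.

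The place of the members among all genes was taken from a limma fit of log2(TPM + 1) over the 12510 genes whose mean reached 1 TPM. DEGs were required to differ by more than 0.5 on the log2 scale, up or down, at an adjusted p below 0.05. Of the 6 members, 2 were tested, Apol9a and Apol9b, and both were downregulated DEGs, where 10.8% of all genes tested were. The pLV-SEMA6A libraries were all below the pLV-Control libraries in 34.7% of the genes tested and all above them in 23.8%. The members were chosen on this contrast, so nothing is read from their count. Of all genes tested, 1347 were downregulated and 640 upregulated, and with each library centred on its median the split was 961 and 1002. From the lowest log2 fold change of all genes tested, Apol9a ranked 98 and Apol9b 110, and among the 1347 downregulated DEGs 60 fell more than Apol9a and 65 more than Apol9b. By mean TPM, Apol9a ranked 317 and Apol9b 334 of the 12510 genes in pLV-Control, and 1307 and 1297 in pLV-SEMA6A.

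**Figure D3:**
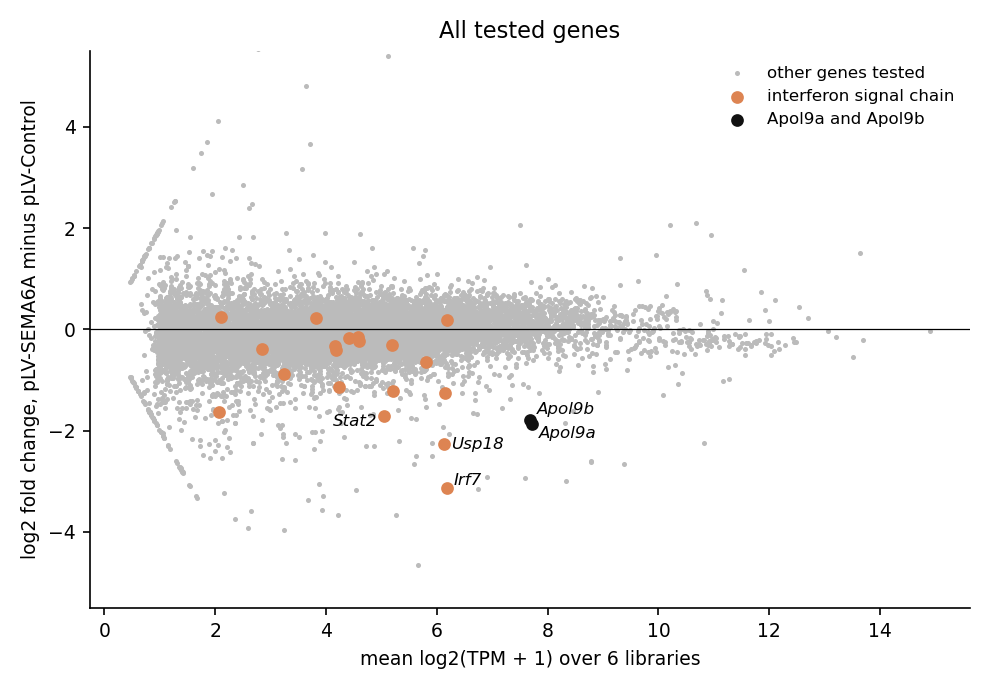
Log2 fold change (pLV-SEMA6A minus pLV-Control) against mean log2(TPM + 1) over the 6 libraries for the 12510 genes tested, with Apol9a and Apol9b in black and the 19 tested genes of the interferon signal chain in orange; 6 genes lie beyond the vertical limits of 5.5. Apol9a (−1.87) and Apol9b (−1.79) lie among the more abundant of the genes that fell.

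The 8 other Apol genes were low in all libraries. Of these, 5 were listed at 0 throughout (Apol7b, Apol7c, Apol10c-ps, Apol11a and Apol11b), and the highest value was 2.58 TPM. Apol7a alone had a mean of at least 1 TPM, namely 1.38, 0.70 and 2.58 for pLV-Control against 0.76, 1.97 and 0.70 for pLV-SEMA6A. The groups overlapped, and its difference of −0.23 on the log2 scale (SE 0.35, limma adjusted p = 0.608) was not past the threshold. Without pLV-Control replicate 3 the difference of Apol7a was 0.04. Apol7d, placed on chromosome 1 by GENCODE M21 as an antisense gene and not in the cluster, ranged from 0.32 to 1.39 TPM. It is counted here by its name, and its transcripts share no 31-base stretch with the other Apol genes. The sum of all Apol genes other than Apol9a and Apol9b was 2.71 to 4.86 TPM in pLV-Control and 1.45 to 3.19 TPM in pLV-SEMA6A.

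The genes around the members were examined to see whether the region as a whole differed. Within 500 kb of the outer ends of the member span lie 61 listed genes outside the family, of which 26 were tested. No gene lying between Apol9a and Apol9b reached a mean of 1 TPM, so none there was tested. Rbfox2, an RNA-binding splicing regulator that lies between Apol6 and the other members, averaged 95.1 ± 0.81 TPM without and 91.2 ± 3.81 TPM with SEMA6A (SD, n = 3 each; adjusted p = 0.220 from limma), and its groups overlapped, with the sign of its difference turned from −0.06 to 0.03 on the log2 scale when libraries were centred. Myh9, the non-muscle myosin heavy chain gene next to Apol8, averaged 342 ± 9.60 and 360.4 ± 8.50 TPM (SD, n = 3 each; adjusted p = 0.0779 from limma). Its difference of 0.08 on the log2 scale was not past the threshold, although its pLV-SEMA6A libraries all lay above the pLV-Control libraries.

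Of the 26 genes, 3 were downregulated DEGs, where 10.8% of all genes were, and 1 was an upregulated DEG, where 5.12% were. Lrrc14 rose from 12.4 ± 1.34 to 21.9 ± 2.37 TPM (SD, n = 3 each), by 0.78 on the log2 scale (limma adjusted p = 0.00116). Kifc2, a kinesin gene, fell from 1.85 ± 0.34 TPM (SD, n = 3) to 0.59 ± 0.17 TPM (SD, n = 3), a difference of −0.84 on the log2 scale (limma adjusted p = 0.00879). Gpt (−0.55) and 1700109K24Rik (−0.51) were just past the fold limit. With pLV-Control replicate 1 left out both lost the call and 2 DEGs were left, as also with libraries centred on their median. Gpt lost it in 5 of the 6 fits that left out a library, with pLV-SEMA6A replicate 2 as the exception, and 1700109K24Rik also without pLV-SEMA6A replicate 2. Cyhr1, at −0.46 in the main fit, gained the call without pLV-SEMA6A replicate 3, at −0.51. These 26 genes had a median of −0.15 on the log2 scale, against −0.06 for all genes tested. Their values ran from −0.84 to 0.78, so none reached the −1.79 of Apol9b.

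**Figure D4:**
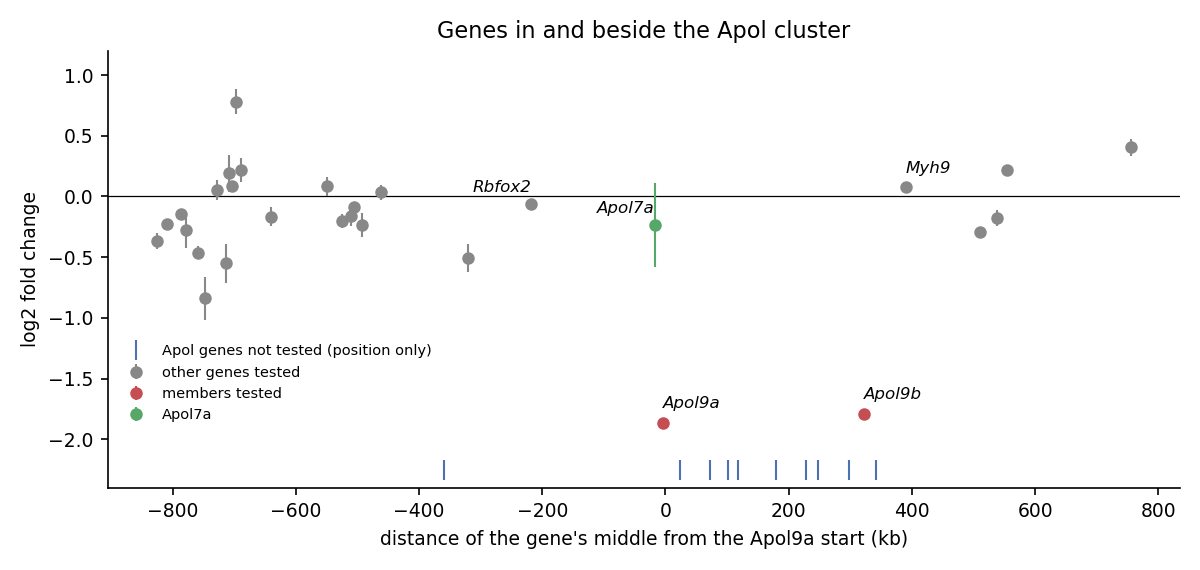
Log2 fold change (pLV-SEMA6A minus pLV-Control, bars are standard errors) of the tested genes in and beside the Apol cluster, against the distance of each gene's middle from the Apol9a start in kb on GRCm38. Blue ticks mark the positions of the 10 Apol genes on this chromosome whose mean over the 6 libraries was under 1 TPM, which were not tested. Apol9a and Apol9b lie near −1.8, and Rbfox2, Myh9 and Apol7a, which lie outside the stretch between them, are between −0.23 and 0.08. No gene between Apol9a and Apol9b was tested.

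The signal chain that induces interferon-stimulated genes was described through 21 receptors, kinases, factors and inhibitors, of which 19 were tested. By limma, 16 had lower and 2 had higher levels with SEMA6A at an adjusted p under 0.05. Of these, 9 were downregulated DEGs, where 10.8% of all genes tested were, and 0 were upregulated DEGs, where 5.12% were. In the same fit 28.2% of all genes were lower and 19.5% higher at that p. The median log2 fold change was −0.41 for the chain and −0.06 for all genes tested. The 9 DEGs were DEGs in each fit that left out a library. The list was chosen with earlier results of these data known, so nothing is read from its count of DEGs.

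Among the subunits of the complex of STAT factors and IRF9, Stat2 had TPM of 57.2, 59.2 and 59.65 for pLV-Control against 17.2, 18.7 and 15.8 for pLV-SEMA6A. Its log2 fold change of −1.71 (SE 0.06, limma adjusted p = 7.8e-06) was the nearest in the chain to that of Apol9b. The groups did not overlap. Irf9 had a log2 fold change of −1.21.

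Irf7, a factor that amplifies the interferon response and is itself induced by it, fell most in the chain, from 213 ± 3.12 TPM (SD, n = 3) to 23.6 ± 1.85 TPM (SD, n = 3), or −3.13 on the log2 scale. Usp18, which removes ISG15 and dampens the receptor, fell from 154 ± 5.56 to 31.1 ± 0.84 TPM (SD, n = 3 each). Irf1 fell from 27.0 ± 2.13 to 11.8 ± 1.27 TPM and Irf5 from 6.37 ± 0.51 to 1.41 ± 0.43 TPM (SD, n = 3 each). Irf7 and Usp18 thus had a larger difference than Apol9a, while Stat2, Irf9 and Irf1 had a smaller one. The place of Irf5 depended on the scale, with −1.63 against −1.87 for Apol9a on log2(TPM + 1) but −2.14 against −1.87 with a pseudocount of 0.1, and a TPM ratio of 4.53 against 3.66. The difference between these genes and Apol9a was not tested.

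The receptor genes had smaller log2 fold changes. Ifnar2, a chain of the type I receptor, was a downregulated DEG with a log2 fold change of −0.64, and the kinase Tyk2 another with −0.88. Ifnar1 (−0.15), Ifngr1 (−0.23) and Ifngr2 (−0.18) did not reach the minimum of 0.5. The kinase Jak1 (0.19) and the receptor chain Il10rb (0.23) were the 2 genes higher at an adjusted p under 0.05. Il10rb lost this with the replicate block, without the filter and in 5 of the 6 fits that left out a library, all but the one without pLV-Control replicate 2. Ifnar1 and Ifngr2 lost it with the block, with centred libraries and in 5 and 4 of these fits, and Ifnar1 also without the filter. The inhibitor Socs3 (−0.39) lost it without the filter, with centred libraries, and without pLV-Control replicate 2 or 3 or any pLV-SEMA6A replicate. The factor Irf2 (−0.41) lost it without pLV-Control replicate 2 or 3. Of 11 chosen interferon genes (Ifnb1, Ifna1, Ifna2, Ifna4, Ifna5, Ifne, Ifnk, Ifnz, Ifnl2, Ifnl3 and Ifng), 8 were listed at 0 in all libraries. Among the rest of these 11 the highest value was 0.76 TPM. Other interferon genes were not examined. Ifnb1, which encodes interferon beta, was listed at or below 0.12 TPM without and at or below 0.25 TPM with SEMA6A.

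**Figure D5:**
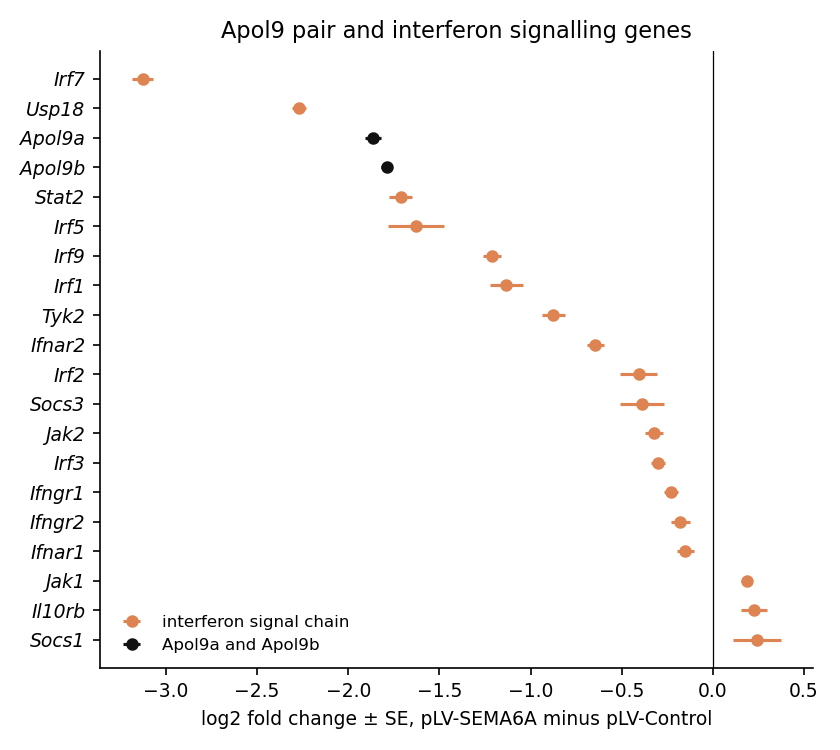
Log2 fold change (pLV-SEMA6A minus pLV-Control, horizontal axis, bars are standard errors) of 18 tested genes of the interferon signal chain in orange and of Apol9a and Apol9b in black, ordered by value. On this log2(TPM + 1) scale Irf7 (−3.13) and Usp18 (−2.27) lie below Apol9a, Irf5 lies above it although its TPM ratio is larger (4.53 against 3.66), and Jak1, Il10rb and Socs1 lie above 0.

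The genes with the most similar profile were sought outside the family. Each profile of log2(TPM + 1) was centred on its pLV-Control mean, and likeness was the root mean square difference over the 6 libraries, where 0 means the same profile. The nearest gene to Apol9a was Isg15, a ubiquitin-like protein joined to other proteins in the interferon response, with a difference of 0.04. Parp14, an ADP-ribosyltransferase, followed with 0.07 and Lgals9, which encodes galectin-9, with 0.07. The place of Parp14 depended on the scale, since with a pseudocount of 0.1 its log2 fold change was −2.11, against −1.87 for Apol9a, −1.86 for Isg15 and −1.80 for Lgals9. Apol9b itself differed from Apol9a by 0.07.

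The nearest gene to Apol9b was Lgals9 with 0.03, followed by Isg15 with 0.05 and Ifi204, a member of the interferon-inducible PYHIN family, with 0.06. Lgals9 had TPM of 90.15, 89.55 and 89.4 for pLV-Control against 26.3, 24.7 and 25.97 for pLV-SEMA6A, a log2 fold change of −1.77. Parp14 was lower in level, at 16.6 ± 0.41 and 3.79 ± 0.44 TPM (SD, n = 3 each). These profiles are dominated by the difference between the groups. They are a description over 6 libraries of the same fit, not a test.

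The genes that carry the name apolipoprotein without belonging to the L family, with the lipid carrier Clu and with Apold1, were set beside the members. Of 19 genes, 7 were tested, 2 were downregulated DEGs (10.8% of all genes tested) and 0 upregulated DEGs (5.12% of all genes tested). Apoe, a lipid carrier of blood and brain, fell from 12.8 ± 0.40 TPM (SD, n = 3) to 8.01 ± 0.56 TPM (SD, n = 3), a difference of −0.62 on the log2 scale (limma adjusted p = 0.000569). Apod fell from 1.80 to 0.39 TPM in the mean, and its call was lost without pLV-SEMA6A replicate 1 (adjusted p = 0.0583 from limma) and without pLV-SEMA6A replicate 3 (adjusted p = 0.0670 from limma), while without pLV-Control replicate 2 or 3 it was under the filter. Clu had a log2 fold change of 0.23 and Apoo of 0.23, both with an adjusted p under 0.05 but below the fold limit. The 7 genes had a median of 0.11 on the log2 scale, and Apoa1, Apoa4, Apoc1, Apoc2 and Apoc3 were listed at 0 in all libraries. Apold1, named for its similarity to the L family, averaged 0.83 ± 0.16 TPM without and 1.25 ± 0.17 TPM with SEMA6A (SD, n = 3 each; adjusted p = 0.181 from limma). Its pLV-SEMA6A libraries all lay above the pLV-Control libraries, as in 23.8% of all genes tested. Without the trend option of limma its adjusted p was under 0.05. Without pLV-SEMA6A replicate 1 or 3 it was under the filter.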

How the data were processed

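Poly-A mRNA of SL4 cells was captured, fragmented, reverse transcribed with random primers and read on Illumina instruments. As values, the authors deposited TPM per library with 2 decimals, and the mean TPM of each group, which was not used. The submitters' processing notes name HISAT, Bowtie2, RSEM and mm39, and versions and the annotation are not given in the sources used here. Listed TPM summed to between 977400 and 986444 per library. Limma 3.58.1 in R 4.3.3 with its trend option was run on log2(TPM + 1), which understates the change of low genes, over the genes whose mean reached 1 TPM. Adjustment followed Benjamini and Hochberg over all 12510 genes tested. The fit was tested on simulated data.

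GENCODE M21 held 52093 of the identifiers (97.0%) and gave positions and transcripts, and RefSeq gave promoters. Coding sequences were aligned globally with Biopython 1.88. The members and lists were chosen with earlier results of these data known. The genes named are the members, other Apol genes, the genes of the lists and the 3 nearest profiles of each tested member. Alternatives were another pseudocount, no filter, other fold limits, the replicate block, no trend, centred libraries, summed pairs and leaving out each library. The values of 1 gene of the interferon chain are not reported here, and it stays in the counts.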

Additional observations from a re-analysis of the deposited data

How the results depend on the processing

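Apol9a and Apol9b were lower in pLV-SEMA6A in all alternatives run. With libraries centred on their median their log2 fold changes were −1.77 and −1.70, with their TPM added together −1.83, and with each library left out they ran from −1.90 to −1.82 and from −1.82 to −1.77. The 2 members stayed DEGs, and without the filter on low values 3 members were (Apol10b in addition). In that unfiltered fit 1367 of 24518 genes were downregulated DEGs. Apol10b was listed at 0, 0 and 0.09 TPM in pLV-SEMA6A. DEGs among all genes numbered 5959 without a minimum fold change and 385 with a minimum of 1, and 1900 to 1975 with a library left out. For the interferon chain 18 genes counted without a minimum fold change, and 9 with any library left out. For the other apolipoproteins, 4 counted without a minimum and 1 with a minimum of 1, and 1 to 2 with a library left out. For the genes beside the cluster, 13 counted without a minimum, 0 with a minimum of 1 and 2 with centred libraries, and 2 to 4 with a library left out. Among genes near no difference the sign turned for Apol7a (−0.49 to 0.042 with a library left out) and Ppp1r16a (−0.0070 to 0.11) without pLV-Control replicate 3, for 1110038F14Rik (−0.012 to 0.079) without pLV-Control replicate 2, and for Rpl8 (0.0066) and Rbfox2 (0.033) with centred libraries. The cause was not tested.

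With the replicate block 1924 genes were DEGs (1301 lower and 623 higher), and the members and lists kept their counts of DEGs. In the chain, Ifnar1, Ifngr2 and Il10rb lost an adjusted p under 0.05 with the block. Same-numbered libraries did not deviate together (correlations of −0.023, −0.079 and −0.074), and none correlated best with its own number. Depth cannot be read from TPM, which limits what can be said of Apol6, Apol8, Apol10a and Apol10b.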
